A study of Mus musculus with 2 samples.

Results

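Layer 6 corticothalamic neurons are the deep cortical excitatory cells that send their axons back to the thalamus. Here they were 702 nuclei of 30413 sequenced from the mouse forebrain, 280 of 12204 in the Normal library and 422 of 18209 in the library made after subarachnoid haemorrhage (SAH). They were chosen by counts of unique molecular identifiers (UMIs), which stand for captured RNA molecules. A member had 300 to 7000 detected genes and at least 2000 UMIs, at least 2 UMIs of Slc17a7, at least 5 each of Foxp2 and Hs3st4, at most 7 of Rorb, at most 4 of Synpo2, at most 2 of Gad1 and Gad2 together, and at most 5 of Mobp and St18 together. The limits on genes and total UMIs alone left 10035 nuclei in Normal and 15287 in SAH.

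The study asked how SAH disturbs the thalamocortical pathway that keeps the brain awake. SAH was produced in mice by endovascular perforation, in which a filament passed up the carotid artery punctures a vessel at the base of the brain, and brains were taken 12 h later. Both groups were male mice, C57BL/6J by the study's methods and with no allele or transgene named, of 6 to 8 weeks according to the labels, which give another age than the study's methods. Each library was 1 pool of frozen tissue from 3 mice, cut from the hemisphere on the injured side from 2.34 mm in front of bregma to -2.18 mm on the same axis, so that cortex, striatum and thalamus could all be present. The control is labelled as normal tissue and is called sham in the study's text, which leaves unknown if these mice were operated on, and it is named Normal here. With 1 library a condition there were no replicates: mice, library preparation and SAH cannot be told apart, no test between conditions was possible, and every interval below is a 95% interval that covers counting error only. In all, 78 barcode sequences occurred in both libraries, and 0 of them belonged to a member in both libraries at once. The study's text describes more control than SAH nuclei, whereas the deposited SAH library was the larger, and both were used as labelled.

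The corticothalamic cells of this class lie in layer 6. They receive input from the thalamus and from other cortical layers, and their glutamatergic axons reach relay nuclei directly and the inhibitory reticular nucleus by collaterals, through which they set the gain and timing of what the thalamus passes to the cortex. The transcription factors Tbr1, Sox5, Foxp2 and the corepressor Tle4 belong to their developmental programme, while Fezf2 is best known from the subcortically projecting cells of layer 5. In nuclei, much of the captured RNA is unspliced precursor, so a level given here is closer to recent transcription than a level from whole cells would be.

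The depth of members was alike in both libraries. Their summed UMIs were 4253687 in Normal and 6212716 in SAH, with a median of 13617 UMIs and 3930 genes a nucleus in Normal and of 13628 UMIs and 3768 genes in SAH. Mitochondrial transcripts made up 0.0590% and 0.0498% of the UMIs of a nucleus, as a mean over members. Foxp2, which chose the members, had a median of 10.0 UMIs a nucleus in Normal, with a maximum of 78, and of 12.0 in SAH, with a maximum of 47. Hs3st4, an enzyme that modifies heparan sulphate and also part of the choice, had medians of 32.0 and 33.0 UMIs. Slc17a7, the vesicular glutamate transporter of cortical excitatory cells, sat close to its minimum, with medians of 4.50 UMIs in Normal and 3.00 in SAH. Rorb, Synpo2, the Gad pair and the Mobp and St18 pair each had a median of 0 in both libraries.

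Genes that the choice did not read were also compared on either side of its limits. With all other limits met, 38 Normal and 31 SAH nuclei held exactly 5 UMIs of Foxp2, just inside, and 23 and 35 held 4, just outside. Syt6 was at 60.4 and 55.3 CPM (UMIs of a gene per 1000000 UMIs of all summed nuclei) just inside and at 80.4 and 12.8 just outside. Zfpm2 was at 894 and 1355 CPM just inside and at 697 and 1129 just outside, so that Zfpm2 differed less at this limit, whereas Syt6 in SAH was far lower outside it. The limit on Slc17a7 had many more nuclei beside it, with 53 Normal and 149 SAH nuclei at 2 UMIs and 47 and 143 at 1 UMI. Their Zfpm2 was at 1103 and 1879 CPM inside and at 1012 and 1836 outside. A further 83 Normal and 169 SAH nuclei met all other limits with 0 Slc17a7 UMIs. They were less like members, with Zfpm2 at 386 and 833 CPM and Syt6 at 38.5 and 31.3, against 85.5 and 72.0 at 2 UMIs. Few nuclei lay at the limit on Hs3st4, with 3 and 2 at 5 UMIs and 1 and 3 at 4 UMIs. The limit on Rorb left out 6 Normal and 21 SAH nuclei and that on Synpo2 left out 5 and 22.

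The members carried the markers of their label. Syt6, a synaptotagmin used as a marker of these cells, stood at 99.9 CPM in Normal and 66.0 in SAH, against 2.46 and 1.68 CPM in all other nuclei with at least 2 Slc17a7 UMIs (other glutamatergic, 3058 and 2911 nuclei). Trabd2b, an inhibitor of Wnt proteins, was at 119 and 164 CPM against 22.9 and 31.1. Zfpm2, a cofactor of GATA factors, was at 1298 and 1810 CPM against 276 and 384. Tle4 was at 570 and 448 CPM against 100 and 81.7, and Thsd7b at 994 and 950 against 160 and 182. Less far apart were Tbr1, at 32.7 and 37.3 CPM against 14.5 and 15.1, Sox5, at 588 and 621 against 381 and 431, and Ntsr1, the neurotensin receptor whose driver line is widely used to reach these cells, at 10.8 and 9.82 against 5.47 and 4.05. Crym was also close in Normal, at 28.2 CPM against 20.1, and less so in SAH, at 46.2 against 18.3. The 11 markers besides Foxp2 and Hs3st4, which the choice itself required, were each detected and higher in members than in other glutamatergic nuclei in both libraries.

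**Figure D1:**
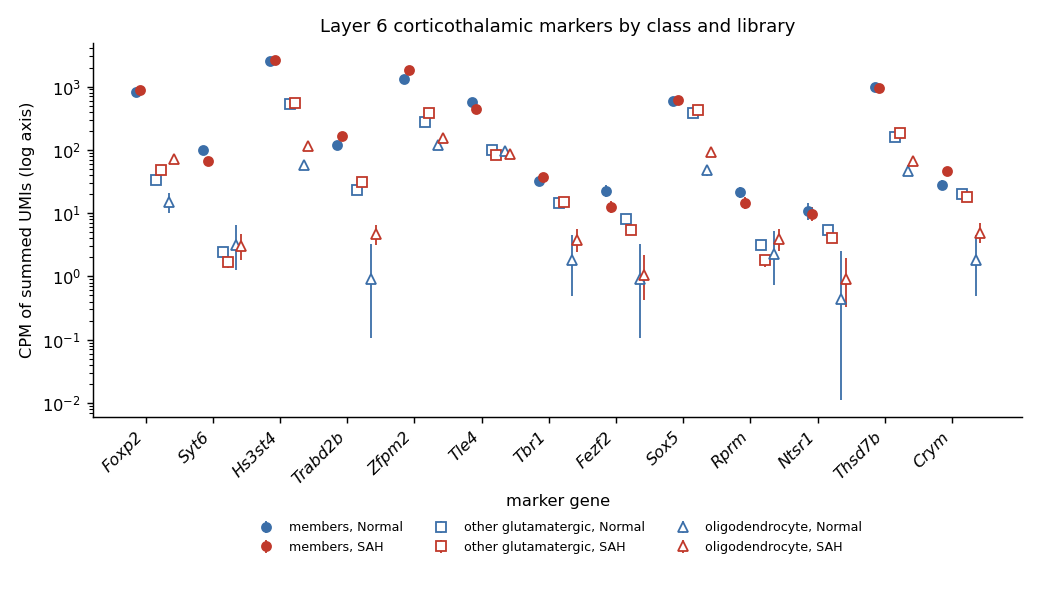
CPM of summed UMIs on a log axis for the 13 layer 6 corticothalamic markers, with filled circles for members, open squares for other glutamatergic nuclei and open triangles for oligodendrocyte nuclei (blue Normal, red SAH; bars are exact Poisson 95% intervals). Syt6 at 99.9 and 66.0 CPM in members lies furthest above the 2.46 and 1.68 CPM of other glutamatergic nuclei, whereas Sox5, at 588 and 621 against 381 and 431 CPM, lies close.

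Markers of other cells were also read. Oligodendrocyte genes summed to 52.7 CPM in Normal and 43.8 in SAH, led by Mbp at 26.8 and 21.6, against 13129 and 9436 CPM in 739 and 2034 oligodendrocyte nuclei, taken as those with at least 8 UMIs of Mobp and St18 together and none of Slc17a7, Gad1 or Gad2. Astrocyte genes summed to 916 and 785 CPM, of which Slc1a2 gave 825 and 687, while Aqp4 stood at 0.235 and 0.322. Microglial genes summed to 78.5 and 113 CPM, led by P2ry12, which lies inside Med12l on the opposite strand, at 41.1 and 56.7. Vascular genes summed to 1.18 and 1.45 CPM with Cldn5 and Vtn at 0 in both libraries, where a count of 0 allows up to 0.705 CPM in Normal and 0.483 in SAH (3 UMIs, a one-sided limit), and red cell genes summed to 4.70 and 2.09 with Hbb-bt at 0 in both. Interneuron genes summed to 112 and 190 CPM, led by Adarb2 at 70.3 and 157, with Gad1, itself limited by the choice, at 2.35 and 2.74. Striatal genes summed to 1234 and 628 CPM, nearly all of it Pde10a at 1207 and 608, which was at 1183 and 655 CPM in other glutamatergic nuclei too, and Drd2 was at 0 in Normal. Thalamic genes summed to 27.0 and 15.9 CPM, led by Slc17a6, with Shox2 at 0 in SAH. The layer 6b list was the one that differed most between the libraries, at 109 CPM in Normal and 31.7 in SAH, led by Ccn2 at 86.7 and 20.3. Hippocampal and amygdalar genes summed to 58.8 and 61.3 CPM, led by Rspo2 at 50.1 and 43.8. The list of near-projecting cells, a neighbouring deep type, was at 127 and 76.9 CPM, led by Tshz2 at 118 and 71.6. The list of Car3 and claustrum cells, also deep, was at 68.4 and 34.4 CPM, led by Nr4a2 at 39.5 in Normal and by Synpr at 14.3 in SAH. What part these neighbouring types have in the comparison of the libraries was not tested as a cause. Some ratios that moved when the nuclei with layer 6b or Tshz2 marks were left out are given both ways.

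Apart from the genes of the choice, 24 of 5864 genes with enough counts (0.409%) were at least 4-fold higher in members than in other glutamatergic nuclei in both libraries. After Syt6 (chr3:103575231-103645569, + strand, GRCm38), at log2 ratios of 5.34 and 5.29, came Sla, a Src-like adaptor, at 3.61 and 3.34, and Arhgap25, a GTPase-activating protein, at 3.89 and 3.22. Tg, the thyroglobulin gene, inside which Sla lies on the opposite strand, was at 3.43 and 3.14, and the reads of that pair may not be separate. Col5a1, a fibrillar collagen, was at 3.49 and 2.87. Rai14, an actin-binding protein, was at 3.04 and 2.79 and Sema5b, a transmembrane semaphorin, at 2.70 and 2.59. The 12 leading genes were completed by Tle4, Mypn, Rell1, Thsd7b and Trabd2b. Since the nuclei were chosen on their own RNA, these ratios describe the class and test nothing. Of these genes, Sema5b was 132 CPM in Normal and 70.2 in SAH, Col5a1 was 65.4 and 37.8, Mypn was 15.0 and 25.4, and Tg was 15.5 and 25.9.

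Members were not uniform. At least 2 UMIs of the layer 6b genes Ccn2, Nxph4, Cplx3 and Moxd1 together were found in 46 Normal nuclei (16.4%, exact binomial interval 12.3% to 21.3%) and in 38 SAH nuclei (9.0%, 6.45% to 12.2%). These nuclei held Ccn2 at 389 CPM in Normal and 140 in SAH and had little Syt6, at 33.6 and 12.3 CPM, or Rprm, at 2.17 and 1.23. They held more of Nr4a2, a nuclear receptor long used to mark the deepest cortical cells, at 141 and 54.1 CPM, and of Thsd7b, at 1562 and 1966. At least 10 UMIs of Tshz2, a zinc finger gene of near-projecting cells, were found in 14 Normal nuclei (5.00%) and 14 SAH nuclei (3.32%). Those held Slc17a8, a vesicular glutamate transporter, at 69.6 and 11.8 CPM. In the 220 Normal and 371 SAH nuclei with neither mark, Syt6 was at 126 and 75.7 CPM, Rprm at 27.2 and 17.2, and Nr4a2 at 12.3 and 5.21. Syt6 itself was found with at least 2 UMIs in 37.5% of Normal and 25.8% of SAH members and with 0 UMIs in 42.1% and 46.2%, so at this depth a nucleus without a Syt6 UMI cannot be said to lack it. Those with at least 2 Syt6 UMIs held Ccn2 at 10.1 and 3.06 CPM, against 162 and 34.3 in those with 0.

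Whether SAH changed the number of these neurons cannot be read from the shares, which moved with the denominator. Members were 2.79% of the filtered nuclei in Normal (exact binomial interval 2.48% to 3.13%) and 2.76% in SAH (2.51% to 3.03%), intervals that overlap almost wholly. Of nuclei with at least 2 Slc17a7 UMIs they were 8.39% in Normal (7.47% to 9.38% of 3338) and 12.7% in SAH (11.6% to 13.8% of 3333), and those nuclei were themselves 33.3% of filtered nuclei in Normal and 21.8% in SAH. After thinning to 5000 UMIs a nucleus, for which 2296 Normal and 3803 SAH nuclei were too shallow, members were 0.982% (0.774% to 1.23%) and 0.731% (0.584% to 0.905%) of the rest. The thinned shares of Slc17a7 nuclei were 4.61% and 8.21%. Slc17a7 itself was at 330 CPM in Normal and 231 in SAH in members (log2 ratio of SAH over Normal -0.51, interval -0.62 to -0.41) and at 297 and 192 in other glutamatergic nuclei. Both classes were chosen with at least 2 Slc17a7 UMIs, so these values describe nuclei past that limit only and do not explain the shares. Dropping the minimum on Slc17a7, a choice made after these values were seen, added 130 Normal and 312 SAH nuclei, of which 83 and 169 were those with 0 Slc17a7 UMIs and lower Zfpm2 and Syt6. Members were then 410 nuclei or 4.09% of filtered nuclei in Normal (3.71% to 4.49%) and 734 or 4.80% in SAH (4.47% to 5.15%). That order was opposite to the thinned shares of filtered nuclei, whose intervals overlap. It was the same as the order of the thinned shares of Slc17a7 nuclei.

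Next the RNA of members was compared between the libraries. Over 8369 genes with at least 100 UMIs in both libraries together, 559 (6.68%) were at least 1.5-fold higher in SAH and 1191 (14.2%) at least 1.5-fold lower, and the median log2 ratio was -0.14. Centred on that median, 775 genes (9.26%) were higher and 725 (8.66%) lower, a nearly even split. Counts of list genes centred on all genes, given below, are to be read beside these centred shares. Malat1, a nuclear noncoding RNA that took 5.44% of member UMIs in Normal and 3.52% in SAH (log2 ratio -0.63), was lower in SAH in the other classes too, at 6.41% and 4.07% in other glutamatergic and 10.5% and 6.52% in oligodendrocyte nuclei.

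The shift went with gene length. Among 295 genes annotated at under 5 kb the median log2 ratio was -0.55, and 47.1% of them were at least 1.5-fold lower. Among 1819 genes of 5 to 20 kb the median was -0.35 and among 2625 genes of 20 to 50 kb it was -0.18. It was -0.09 from 50 to 100 kb, -0.02 from 100 to 200 kb, and 0.10 among 842 genes over 200 kb, of which 9.74% were higher and 3.44% lower. The same order was seen in other glutamatergic nuclei, from -0.69 to 0.12, and in thalamic relay nuclei (at least 2 Slc17a6 and 5 Synpo2 UMIs, 280 and 630 nuclei), from -0.51 to 0.16. For lists of short genes, the median after centring each gene on the 500 genes nearest in length is therefore given as well. What part RNA quality or the making of the libraries has in this was not tested.

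**Figure D2:**
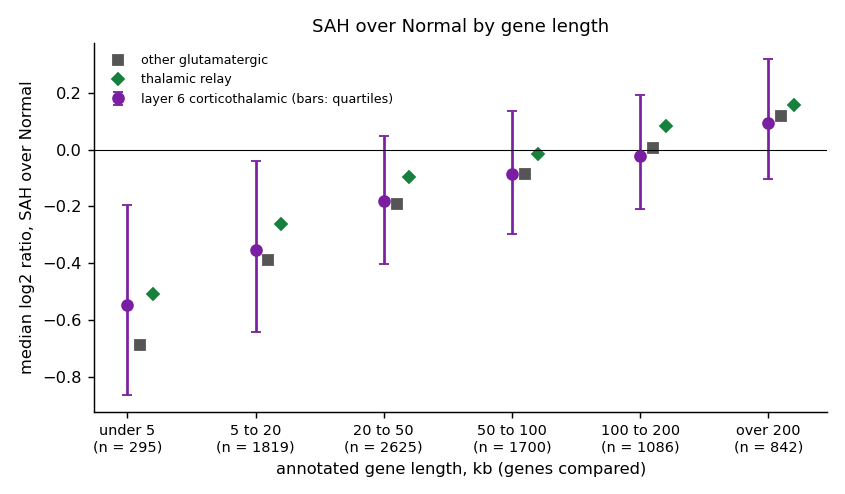
Median log2 ratio of SAH over Normal (vertical) in 6 classes of annotated gene length in kb (horizontal), with purple circles and quartile bars for members, grey squares for other glutamatergic nuclei and green diamonds for thalamic relay nuclei. In members the medians climb from -0.55 under 5 kb to 0.10 over 200 kb, and the other classes follow the same order.

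Of the 10 genes with the lowest ratios among those of at least 200 UMIs, 3 were on the activity lists described below, which were Egr1, Nr4a2 and Vgf. Egr1 was lowest. Cck, the cholecystokinin peptide, was at 57.4 CPM in Normal and 14.8 in SAH (log2 ratio -1.95, interval -2.32 to -1.60), and in 115 and 77 nuclei. Vgf, a secreted neuropeptide precursor, was at 39.3 and 11.8 CPM (-1.74, -2.16 to -1.34). Mapk11, a p38 kinase, was at 35.5 and 10.5 CPM (-1.76), and Dtx3, a ubiquitin ligase, at 50.8 and 16.3 (-1.64). Dalrd3, which overlaps Wdr6 on the opposite strand, was at 37.1 and 10.9 CPM (-1.76). Other low ratios rested on few nuclei or moved without the marked nuclei. Ccn2 was at -2.10 in all members. It is among the genes that set the mark, so leaving out the marked nuclei removes most of its UMIs by the cut itself. The ratio of -0.94 that remained (-2.63 to 0.72, with 8 and 7 UMIs) therefore does not place the difference. Rmst, a long noncoding RNA, was at 70.8 and 15.9 CPM (-2.15), but 52 of its 301 Normal UMIs came from 1 nucleus, and it was at -1.37 without the marked nuclei. It changed sign with the limits set per 10000 UMIs (0.65) and in members with at least 2 Syt6 UMIs (0.04). Pbx3, a homeobox gene, was at 32.9 and 10.5 CPM (-1.65), with 34 of 140 Normal UMIs in 1 nucleus. It was at -0.75 without the marked nuclei and at 0.49 with the limits set per 10000 UMIs.

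Among genes of at least 200 UMIs, with at most 4 predicted genes taken, the highest ratios were mostly of genes little known or with an overlapping neighbour. Fam205c was at 6.11 CPM in Normal and 30.7 in SAH (log2 ratio 2.33, 1.73 to 2.98), in 24 and 149 nuclei. Timp3, an inhibitor of metalloproteases, was at 11.0 and 37.5 CPM (1.76, 1.31 to 2.25), and Syn3, a synapsin inside which Timp3 lies on the opposite strand, was at 63.0 and 194 (1.62, 1.43 to 1.82). Trpc6, a calcium-permeable cation channel, was at 19.3 and 60.5 CPM (1.65, 1.30 to 2.01). Alas2, the haem synthesis enzyme of red cell precursors, which overlaps Apex2 on the opposite strand, was at 9.64 and 32.8 CPM (1.77, 1.28 to 2.29), beside red cell globin sums of 4.70 and 2.09 CPM. Sorbs2os, opposite Sorbs2, was at 117 and 363 CPM (1.64). The 10 highest within these limits were completed by the predicted or unnamed genes Gm20149 (1.98), Gm10848 (1.90, opposite Cacnb2), AY036118 (1.88) and Gm48239 (1.84, opposite Cadps). Without the marked nuclei all 10 kept log2 ratios between 1.33 and 2.25.

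**Figure D3:**
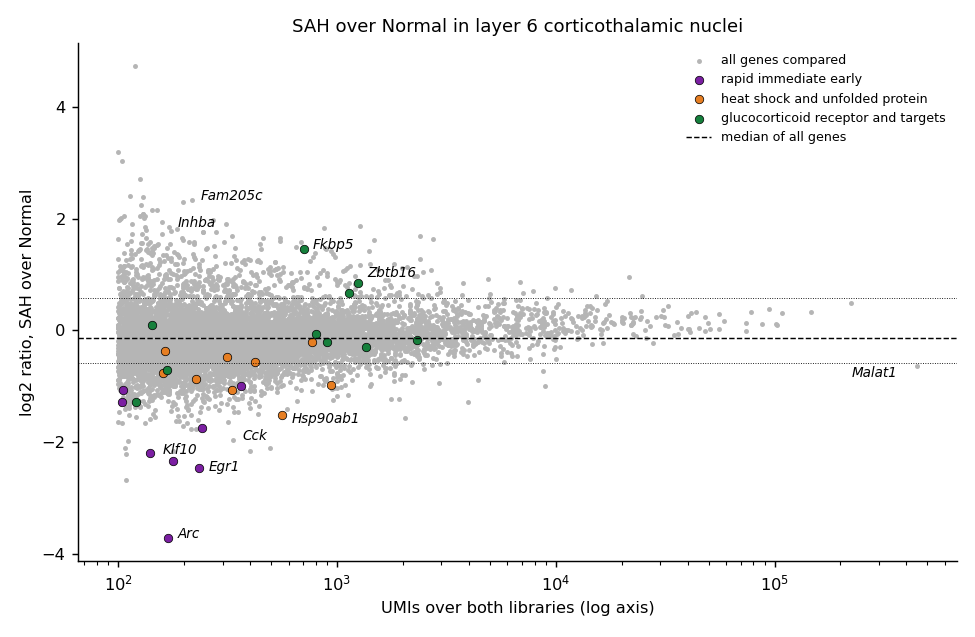
Log2 ratio of SAH over Normal in members (vertical) against UMIs in both libraries together (horizontal, log axis) for the 8369 genes compared in grey, with immediate early genes in purple, chaperones in orange and glucocorticoid genes in green. The dashed line is the median of -0.14 and the dotted lines mark 1.5-fold. The 8 immediate early genes lie between -3.71 (Arc) and -1.0 (Nr4a1), among other low genes in grey, and Fkbp5 at 1.46 lies highest of the glucocorticoid genes.

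Immediate early genes are switched on within minutes of firing, by calcium and cAMP signals that act on transcription factors already bound near their start sites. They were the list with the lowest median. Of 24 genes listed, 8 passed the minimum of 100 UMIs. All 8 were at least 1.5-fold lower in SAH, beside 14.2% of all genes, with a median log2 ratio of -1.97 (-1.59 centred on genes of like length). Over the same 8 genes the median was -1.37 without the marked nuclei, -1.29 in members with at least 2 Syt6 UMIs and -1.93 in members thinned to 5000 UMIs. A gene that is low in SAH could pass the minimum through Normal alone, so the 16 under it were summed as well. They held 308 UMIs or 72.4 CPM in Normal and 179 UMIs or 28.8 CPM in SAH (log2 ratio -1.33, -1.60 to -1.06), and 14 of the 16 were lower in SAH and 2 higher. Over all 24 genes the sum was 327 CPM in Normal and 101 in SAH.

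Arc, an activity-regulated protein of the synapse, differed most. It was at 35.7 CPM in Normal (152 UMIs in 78 nuclei) and 2.74 in SAH (17 UMIs in 12 nuclei), a log2 ratio of -3.71 (-4.52 to -2.98). Oligodendrocyte nuclei, which should lack it, held 7.61 and 2.70 CPM. In CPM the Normal level stood above that class and the SAH level did not. Their median depths were 2568 and 2605 UMIs, against 13617 and 13628 in members, and they had no minimum of total UMIs. The same few UMIs a nucleus give more CPM there, so this does not show that the SAH level was background. Egr1, a zinc finger transcription factor, was at 43.5 CPM and 7.89 CPM (-2.46, -2.95 to -2.00). In oligodendrocyte nuclei it was at 5.82 and 9.13 CPM. In SAH it too was no higher in CPM than in that class, with the same limit of depth. Klf10 was at 32.4 and 6.44 CPM (-2.33, -2.88 to -1.82), in 105 of 280 and 38 of 422 nuclei. Npas4, a neuronal transcription factor induced by calcium entry, was at 24.9 and 5.47 CPM (-2.19, -2.79 to -1.62), with up to 15 UMIs in 1 Normal nucleus. Egr3 was at 15.3 and 6.28 CPM (-1.28) and Ier5 at 14.6 and 6.92 (-1.07). Nr4a1, an orphan nuclear receptor, stayed above the oligodendrocyte level in SAH, at 49.1 CPM in Normal and 24.6 in SAH (-1.0, -1.31 to -0.69), against 5.37 and 5.09 in oligodendrocyte nuclei. Nr4a2 was at 39.5 and 11.8 CPM (-1.75, -2.17 to -1.34). Its level depended on which nuclei were taken, since 32 of 168 Normal UMIs sat in 1 nucleus and most were in the layer 6b-marked nuclei. In members with at least 2 Syt6 UMIs its ratio was 0.04. Fos, the founder of the group, was under the minimum with 27 UMIs in 17 Normal nuclei and 3 UMIs in 3 SAH nuclei.

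Fos, Nr4a1 and Nr4a2, which the list holds whether or not they passed the minimum, are shown with the 250 bases before their start site, since their start regions are textbook targets of CREB, the factor that carries cAMP and calcium signals to the genome. The sequences are from RefSeq (GRCm38.p6), read 5′ to 3′ on the strand of the gene, and capitals mark TGACG or its reverse complement CGTCA, the core letters of the cAMP response element. Fos lies at chr12:85473640-85473889 (+ strand), Nr4a1 at chr15:101266596-101266845 (+ strand) and Nr4a2 at chr2:57124004-57124253 (- strand), and none of the 3 windows overlaps an annotated exon.

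Fos: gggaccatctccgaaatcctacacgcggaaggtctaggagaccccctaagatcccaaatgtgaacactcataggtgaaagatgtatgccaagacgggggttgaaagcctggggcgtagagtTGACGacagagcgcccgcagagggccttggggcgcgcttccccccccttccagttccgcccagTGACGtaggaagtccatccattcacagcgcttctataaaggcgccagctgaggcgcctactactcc
Nr4a1: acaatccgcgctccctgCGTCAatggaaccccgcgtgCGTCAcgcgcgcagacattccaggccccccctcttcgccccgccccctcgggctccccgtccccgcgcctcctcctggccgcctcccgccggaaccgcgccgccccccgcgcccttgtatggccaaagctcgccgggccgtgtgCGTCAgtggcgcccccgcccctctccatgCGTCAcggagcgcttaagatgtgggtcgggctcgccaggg
Nr4a2: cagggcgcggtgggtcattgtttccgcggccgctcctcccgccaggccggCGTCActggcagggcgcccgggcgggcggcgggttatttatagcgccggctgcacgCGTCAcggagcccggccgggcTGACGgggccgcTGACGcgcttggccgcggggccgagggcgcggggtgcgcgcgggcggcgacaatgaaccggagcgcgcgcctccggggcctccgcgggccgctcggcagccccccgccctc

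Fos held 2 of these letter runs, Nr4a1 4 and Nr4a2 4. Searched on both strands, 17.8% of 32851 such windows held at least 1. Counted by gene, where 1 of several windows is enough, 19.8% of 27025 genes did so, and 14 of the 19 listed immediate early genes that matched the RefSeq table (25 windows). Of the 8 genes compared singly, Npas4, Nr4a1 and Nr4a2 were among those 14. Arc, Egr1, Klf10, Egr3 and Ier5 were not, and for Arc, Klf10 and Egr3 the table held no window. The full letters TGACGTCA, which contain the shorter ones, were found for 1.77% of genes and for 3 of the 19, which were Btg2, Dusp1 and Maff. A match describes the letters and shows no binding.

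The spread over nuclei was wide. Summed over the list, members in Normal held a median of 3.00 UMIs and a maximum of 128, and 15.0% held none, while in SAH the median was 1.00, the maximum 13, and 29.9% held none. The nucleus with 128 UMIs carried layer 6b markers. In the nuclei with neither mark the sum was 292 CPM in Normal and 99.6 in SAH, in the layer 6b-marked nuclei it was 472 and 117, and in the Tshz2-marked nuclei 225 and 90.1. Without the marked nuclei Arc was at -3.95, Egr1 at -2.33, Klf10 at -2.52 and Npas4 at -1.51, while Nr4a2 moved to -1.24 and Nr4a1 to -0.77.

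Genes that follow later after activity differed in both directions. Of 20 listed, 11 were compared, of which 5 were lower and 1 was higher, beside 14.2% lower and 6.68% higher among all genes, and the median was -0.35. Centred on all genes, 4 were lower and 1 higher, beside 8.66% lower and 9.26% higher. Besides Vgf, the lower ones included Scg2, a granin of secretory vesicles, at 37.1 CPM in Normal and 19.8 in SAH (-0.91, but under 1.5-fold in 5 of 14 alternatives and at -0.00 with at least 2 Syt6 UMIs), and Homer1, the scaffold of metabotropic glutamate receptors, at 577 and 311 (-0.89, -0.98 to -0.80). Pcsk1, a prohormone convertase, was at 61.1 and 36.9 CPM (-0.73). Inhba, a subunit of activin, went the other way, at 6.35 CPM in 20 Normal nuclei and 23.0 in 81 SAH nuclei (1.86, 1.26 to 2.51). Bdnf was at 9.17 and 9.82 CPM (0.10, -0.50 to 0.72).

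Targets of the glucocorticoid receptor, which rise under stress hormone, gave 3 higher and 2 lower of 10 compared from 22 listed, with a median of -0.12, beside 6.68% higher and 14.2% lower among all genes. Centred on all genes, 3 were higher and 1 lower, beside 9.26% higher and 8.66% lower. Fkbp5, a chaperone that restrains the receptor, was at 33.1 CPM in Normal and 90.9 in SAH (1.46, 1.19 to 1.73), in 92 and 250 nuclei. It was at 56.4 and 505 CPM in oligodendrocyte nuclei, and how much of the member level came from RNA released by such cells was not tested. Zbtb16 was at 80.6 and 145 CPM (0.85), with 111 and 450 in oligodendrocyte nuclei, and Nr3c2, the mineralocorticoid receptor, was at 79.9 and 127 (0.67, under 1.5-fold in 5 of 14 alternatives). Gpd1, a glycerol phosphate dehydrogenase, was lower, at 17.6 and 7.24 CPM (-1.28), and so was the clock gene Per1, also a target, at 20.7 and 12.7 (-0.70, under 1.5-fold in 5 of 14). Of 12 clock genes compared from 18 listed, Hlf was higher, at 39.3 and 67.4 CPM (0.78), and Per1 and Per2 were lower, the latter at 32.4 and 14.5 (-1.16). The hour at which the brains were taken is not in the labels.

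Chaperones of the heat shock and unfolded protein responses, most of them short genes, gave 5 lower and 0 higher of 9 compared from 20 listed, beside 14.2% lower among all genes. Among genes under 5 kb 47.1% were lower, and among those of 5 to 20 kb 30.0%. The list median of -0.76 became -0.36 against genes of like length. Hsp90ab1, a cytosolic chaperone, was at 87.2 CPM in Normal and 30.6 in SAH (-1.51, -1.77 to -1.26), with 310 and 77.7 in oligodendrocyte nuclei. Hspa8 was at 45.6 and 21.9 CPM (-1.06), and the endoplasmic reticulum chaperone Hspa5 at 127 and 64.2 (-0.98). Xbp1, a transcription factor of that response, was at 29.6 and 16.3 CPM (-0.87). Nuclear genes of the respiratory chain gave 15 lower of 28 compared from 36 listed, to be read beside the same shares of all and of short genes. Their median of -0.60 became -0.21 against genes of like length, and 11 were lower when centred on all genes. Examples were Cox8a, at 39.7 and 17.5 CPM (-1.18), and Ndufb5, at 27.7 and 12.7 (-1.13). The list of hypoxia and glycolysis genes gave 3 lower and 0 higher of 13 compared from 21, beside 14.2% lower among all genes, with 2 lower when centred on all genes and 1 of 11 lower without the marked nuclei. The 3 were Ldha, the lactate dehydrogenase, at 17.9 and 7.08 CPM (-1.34), Pfkfb3, a glycolytic regulator, at 23.7 and 11.1 (-1.10), and P4ha1, a collagen prolyl hydroxylase, at 165 and 105 (-0.65).

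The lists of glutamate receptors, GABA receptors and ion channels stand beside 6.68% higher and 14.2% lower among all genes. Without the marked nuclei, 2 of 34 potassium and HCN channel genes and 2 of 20 sodium and calcium channel genes were higher, where 0 were in all members, beside 524 of all 7505 genes compared. Of 21 glutamate receptor genes compared from 24 listed, the median was 0.03. Gria1, an AMPA receptor subunit, was at 667 CPM in Normal and 1133 in SAH (0.76, 0.70 to 0.83), and was the only one past 1.5-fold upwards. Grin3a (-0.97, or -0.67 without the marked nuclei), Grm4 (-0.81) and Grik1 (-0.72) were lower, the first at 33.4 and 17.1 CPM in 40 and 50 nuclei. In members with at least 2 Syt6 UMIs Grin3a had the opposite sign, at 0.70. None of 13 GABA receptor genes compared from 15 was past 1.5-fold, with a median of -0.02, and 1 was higher when centred on all genes. Of 35 potassium and HCN channel genes compared from 38, 4 were lower, among them Kcnip3, a calcium-binding subunit of potassium channels that also acts as a transcriptional repressor, at 277 and 118 CPM (-1.23, -1.37 to -1.10), Hcn2 at 23.7 and 10.8 (-1.14) and Kcnt1 at 114 and 61.8 (-0.88). Kcnj3, a channel opened by G proteins, was at 432 and 639 CPM (0.57), just under 1.5-fold. Of 21 sodium and calcium channel genes compared from 25, Cacnb3 (-1.51) and Cacna1i (-0.86) were lower and 0 were higher.

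Neuromodulator receptors gave 6 lower and 1 higher of 26 compared from 40 listed, with a median of -0.28, beside 14.2% lower and 6.68% higher among all genes. Without the marked nuclei 2 of 19 compared were lower and 1 higher. The higher one was Htr4, a serotonin receptor coupled to cAMP, at 29.6 CPM in Normal and 62.6 in SAH (1.08, 0.79 to 1.38), in 57 and 137 nuclei. The dopamine receptor gene Drd1 was at 19.5 and 8.85 CPM (-1.14, -1.66 to -0.63). Chrna5, a nicotinic receptor subunit for which layer 6 is known, was at 16 and 6.92 CPM (-1.21), against 1.75 and 1.01 in other glutamatergic nuclei, and the somatostatin receptor gene Sstr2 was at 18.1 and 7.57 (-1.26). Oprm1, the mu opioid receptor, was at 247 and 339 CPM (0.45).

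At synapses, the lists stand beside 6.68% higher and 14.2% lower among all genes. All 28 adhesion genes listed were compared, of which 1 was higher and 3 were lower (3 and 4 without the marked nuclei), with a median of 0.07. Lrrtm4, a postsynaptic leucine-rich repeat protein, was at 1802 CPM in Normal and 2751 in SAH (0.61, 0.57 to 0.65, but under 1.5-fold in 6 of 14 alternatives, down to 0.38), and Adgrl1 (-0.86), Nlgn3 (-0.82) and Nrxn2 (-0.81) were lower. Of 25 genes of transmitter release compared from 28, Syn3 was higher and 5 were lower (4 when centred on all genes or without the marked nuclei), among them Unc13a, a priming factor of synaptic vesicles, at 132 and 65.0 CPM (-1.02). Slc17a6, the thalamic glutamate transporter, was at 16.7 and 5.31 CPM (-1.65), found in 31 and 21 nuclei, and moved to -0.95 without the marked nuclei. Unc13c moved from -1.33 to -0.84 without them, and to 1.71, the opposite sign, in members with at least 2 Syt6 UMIs. Among guidance genes, with 1 higher and 5 lower of 23 compared from 28, or 0 higher and 4 lower of 22 without the marked nuclei, Sema4a was at 65.8 and 25.9 CPM (-1.34, -1.63 to -1.06) and Sema7a at 29.2 and 12.9 (-1.18). Slit3, a secreted guidance cue, was at 207 and 333 CPM (0.68, 0.57 to 0.80, but at 0.52 to 0.58, just under 1.5-fold, in 7 of 14 alternatives). Nrp2, a semaphorin receptor, was at -0.93 in all members and at -0.33 (-0.81 to 0.16) without the marked nuclei.

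**Figure D4:**
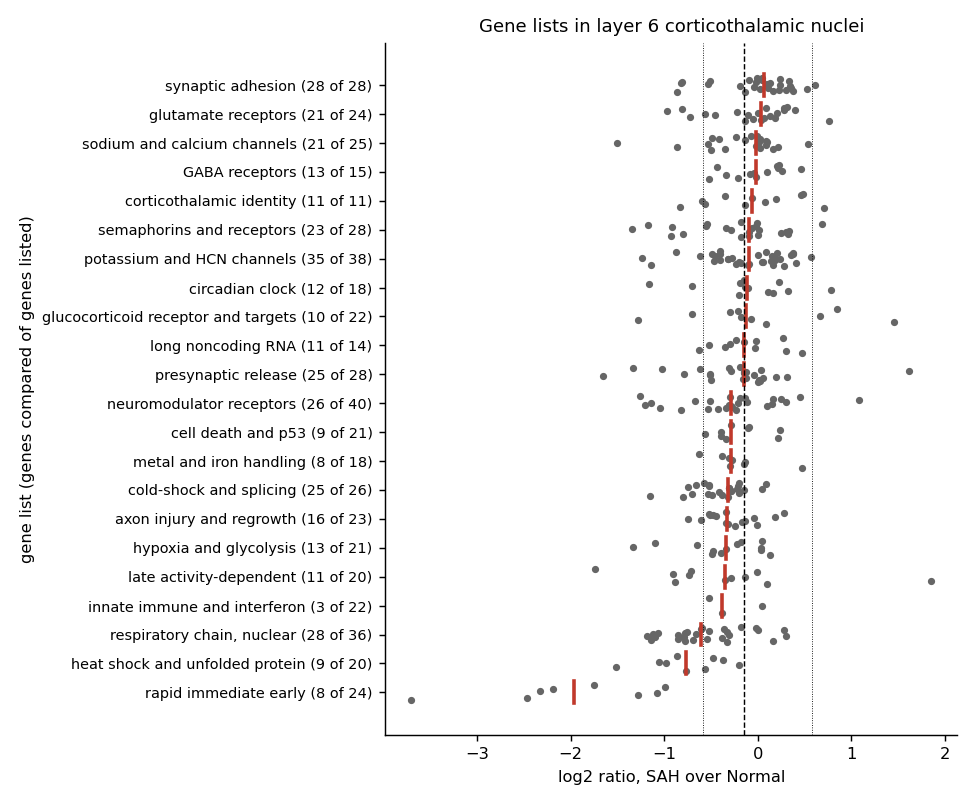
Log2 ratio of SAH over Normal in members (horizontal) for each compared gene (dots) of 22 gene lists (vertical), with red bars at list medians, a dashed line at the median of all genes (-0.14) and dotted lines at 1.5-fold. Immediate early genes (median -1.97), chaperones (-0.76) and respiratory chain genes (-0.60) lie lowest, and adhesion genes (0.07) highest.

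The identity genes of the class itself, 11 besides Foxp2 and Hs3st4, had a median of -0.06, with 1 higher and 2 lower, beside 6.68% and 14.2% of all genes. Centred on all genes, 3 were higher and 1 lower, beside 9.26% and 8.66%. Crym, a thyroid hormone binding protein, was at 28.2 CPM in Normal and 46.2 in SAH (0.71, 0.40 to 1.03), and Zfpm2 and Trabd2b were at 0.48 and 0.46. Fezf2 was at 22.6 and 12.7 CPM (-0.83, -1.28 to -0.38). Syt6 was at -0.60 (-0.80 to -0.40), or -0.73 in the nuclei with neither mark and -0.46 when centred. It was under 1.5-fold in 8 of 14 alternatives, among them the choice of nuclei by Syt6 itself. Pde10a, a phosphodiesterase that breaks down cAMP and cGMP, was at -0.99 (-1.05 to -0.93).

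Lists tied to injury are to be read beside the 6.68% higher and 14.2% lower of all genes, and their centred counts beside 9.26% and 8.66%. None of 9 cell death and p53 genes compared from 21 was past 1.5-fold, with a median of -0.29, and none of 3 innate immune genes compared from 22, with a median of -0.38. Of 16 axon injury genes compared from 23, Nefm (-0.75) and Nefl (-0.61), neurofilament genes that overlap on opposite strands, were lower and 0 were higher, and 1 stayed lower when centred on all genes. Of 8 metal and iron genes compared from 18, the transferrin receptor gene Tfrc was lower, at 59.0 CPM in Normal and 38.3 in SAH (-0.62, -0.89 to -0.36). Centred on all genes, 0 of that list were lower and 1 was higher. Splicing and cold-shock genes gave 5 lower of 25 compared from 26, or 3 when centred on all genes, with a median of -0.31 that became -0.08 against genes of like length. The lowest was Clk4, a kinase of splicing factors, at 160 and 71.8 CPM (-1.15). Of 11 long noncoding RNAs compared from 14, Malat1 alone was past 1.5-fold, and centred on all genes it was at -0.49, under 1.5-fold, with 1 other gene higher. Most of the genes in the death, immune and iron lists were below 100 UMIs and were not compared singly. The 19 innate immune genes below it summed to 171 UMIs or 40.2 CPM in Normal and 222 UMIs or 35.7 CPM in SAH (-0.17, -0.46 to 0.13).

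The same comparison was made in 3 other classes of the same libraries, which share the pools and the preparation. Of 15070 genes compared in other glutamatergic nuclei, 11.5% were higher and 17.2% lower. Of 10074 in thalamic relay nuclei, 8.98% were higher and 11.1% lower. Of 6369 in upper layer nuclei (other glutamatergic nuclei with at least 5 Cux2 UMIs and at most 1 each of Foxp2 and Hs3st4, 177 and 132 nuclei), 7.11% were higher and 14.1% lower. Immediate early genes were lower in each. In other glutamatergic nuclei 18 of 18 compared were lower (median -1.41, sum 257 CPM in Normal and 91.1 in SAH), and in thalamic relay nuclei 3 of 3 (-0.88, sum 90.4 and 52.5). In upper layer nuclei only 1 could be compared, and it was lower (-1.29, sum of the list 188 and 61.1). The sums take all 24 genes listed, since a gene could pass the minimum through Normal alone. Arc was at -3.71 in members and -2.51 in other glutamatergic nuclei, and Egr1 at -2.46 and -1.89, with -0.78 in thalamic relay nuclei.

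Some genes had the same direction in all 4 classes. Cck was at -1.95 in members, -1.83 in other glutamatergic, -1.86 in upper layer and -1.79 in thalamic relay nuclei. Fkbp5 was at 1.46, 1.06, 1.12 and 1.26 in the same order, and Inhba at 1.86, 1.15, 1.64 and 1.33. Gria1 was at 0.76, 0.21, 0.53 and 0.45. Others had both signs, with Homer1 at -0.89, -0.62, -0.46 and 0.26, Slit3 at 0.68, -0.03, 0.08 and -0.02, and Adarb2, an RNA-editing family gene, at 1.16, 0.20, 0.24 and -0.18. Differences between classes were not tested, since each rests on the same pair of libraries.

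**Figure D5:**
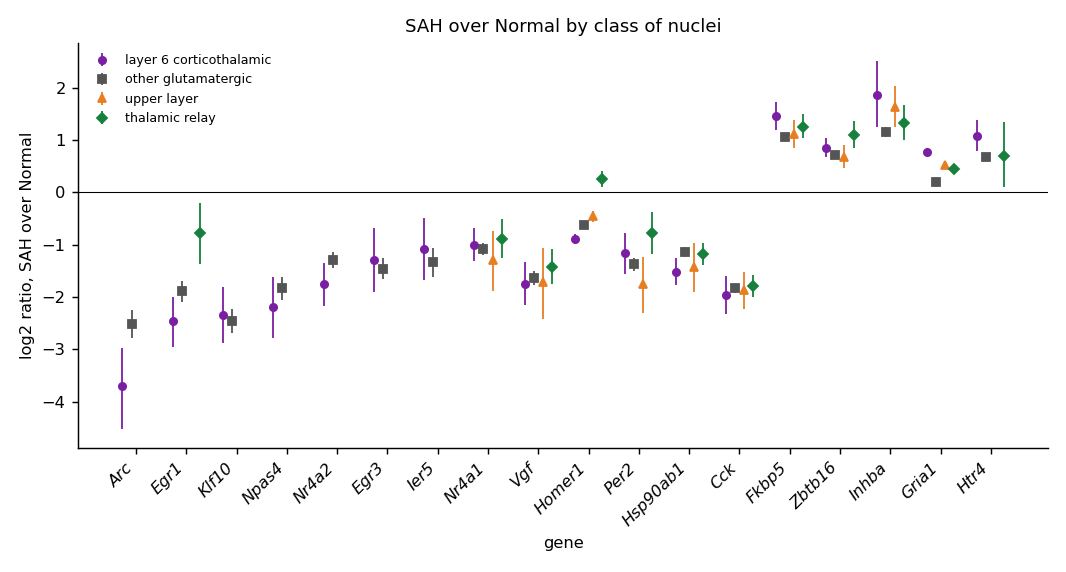
Log2 ratio of SAH over Normal (vertical) for 18 named genes (horizontal) in members (purple circles), other glutamatergic (grey squares), upper layer (orange triangles) and thalamic relay nuclei (green diamonds), where a class is shown if the gene had at least 100 UMIs in it and bars are exact 95% counting intervals. Cck lies between -1.95 and -1.79 in the 4 classes, whereas Homer1 runs from -0.89 in members to 0.26 in thalamic relay nuclei.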

How the data were processed

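The deposited values were counts: whole UMIs per gene and nucleus, not normalized, for 32285 genes. The authors made 10x Genomics 3′ libraries of frozen nuclei and ran Cell Ranger against mm10 with intronic reads counted; the submitters' notes give version 5.0.0 and the headers of the deposited matrices 6.1.2. Normal held 114970719 and SAH 172604358 UMIs, with medians of 7252 and 8151 a nucleus. Nuclei were chosen by the stated limits, and no doublet caller was run. For each class and library, gene UMIs were added over nuclei and given as CPM with exact Poisson 95% intervals. Ratios of SAH over Normal carry exact conditional binomial intervals and shares exact binomial ones. With 1 library a condition, no p-value was computed, and genes are described as past 1.5-fold, which is 0.585 on the log2 scale. These steps were tested on simulated data.

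Named genes were the genes of the choice and the markers, in each of 22 lists the 3 highest and 3 lowest ratios among genes of at least 100 UMIs whose interval left out 0, the 10 highest and 10 lowest of at least 200 UMIs, and the 12 genes most enriched over other glutamatergic nuclei, with at most 4 predicted genes from each. Some genes of the rule are given only within counts. The members, lists and this rule were chosen with earlier results of these data known. Gene lengths and overlaps came from GENCODE vM21 and promoter windows from RefSeq, both of GRCm38. Whether counting used strand is not given in the sources used here, so overlapping genes on opposite strands are uncertain. The tools were scipy 1.17.1, pandas 2.3.3 and numpy 2.4.6 in Python 3.11.15, matplotlib 3.10.9 and, for scaling factors, edgeR 4.0.16 in R 4.3.3. In all, 18 alternatives were computed, of which 2 were added after the data were seen. Human samples and other experiments of the study were not analysed here.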

Additional observations from a re-analysis of the deposited data

Results flagged for a closer look

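Tshz2, a marker of near-projecting cells, was lower in SAH in layer 6 corticothalamic nuclei (log2 ratio -0.73) and higher in other glutamatergic nuclei (0.65), opposite directions past 1.5-fold in classes of the same libraries. The homeobox gene Pbx3 was at -1.65 in members and 1.16 in thalamic relay nuclei. Cacna1i, a T-type calcium channel gene, was at -0.86 in members and 0.97 in thalamic relay nuclei. In the 220 Normal and 371 SAH members with neither layer 6b nor Tshz2 mark, Tshz2 was at 13.9 and 15.8 CPM, while the 14 nuclei a library with at least 10 Tshz2 UMIs (5.00% and 3.32% of members) held it at 1864 and 1399 CPM. Because the mark is Tshz2 itself, these levels follow from the cut and do not place the difference. Pbx3 was at -0.75 in the nuclei with neither mark. None of these differences between classes was tested, because each class had 1 library a condition. For Tshz2 and Pbx3, a few nuclei held much of the member count, with 62 of 504 Normal Tshz2 UMIs and 34 of 140 Normal Pbx3 UMIs in 1 nucleus each, while no Normal nucleus held more than 6 of the 198 Cacna1i UMIs.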

How the results depend on the processing

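Of 18 alternatives, 14 could be computed for single genes. They were run for a chosen set of the named genes, not for all of them. The 57 genes of that set past 1.5-fold gave 798 values, of which 736 were past it the same way and 6 had the opposite sign. Of these genes, 39 were past it under every alternative computed for them. Named genes outside the set, such as Nefl, Tfrc and P4ha1, were not followed, so the shortfalls listed below cover that set only. Of 112 values of immediate early genes, 111 were below 0. The median of those that passed the minimum ran from -2.43 to -0.73, the latter being Nr4a1 alone after thinning. Of 14 alternatives, Syt6 fell short of 1.5-fold in 8, Slit3 in 7, Lrrtm4 in 6, Grin3a, Nr3c2, Per1 and Scg2 in 5, Malat1 in 4 (down to -0.18), Rmst in 3, Crym, Hlf, Nrp2, Pbx3 and Unc13c in 2, and Fezf2, Hspa5, Ier5 and Nr4a2 in 1. The smallest Syt6 ratio, -0.30, came with at least 2 Syt6 UMIs, a setting that chooses nuclei by Syt6 itself and so decides nothing about it. The smallest in the other settings was -0.35, in members thinned to 5000 UMIs. The exceptions in sign were Nr4a2 (0.04), Rmst (0.04), Grin3a (0.70) and Unc13c (1.71) among the 105 Normal and 109 SAH members with at least 2 Syt6 UMIs, and Rmst (0.65) and Pbx3 (0.49) when the limits were set per 10000 UMIs (213 and 246 members); the cause was not tested. Counts of genes past 1.5-fold moved from 559 higher and 1191 lower to 298 and 466 with Syt6, 263 and 539 with members thinned to 5000 UMIs, 931 and 1808 at a minimum of 50 UMIs, 179 and 247 at 400, 3049 and 3546 with 1 UMI in each library, and 225 and 241 past 2-fold, where fewer or more genes were compared or a larger fold was asked. They were 752 and 758 with edgeR TMM factors, 775 and 725 centred on the median, where the centring itself sets an even split, and 795 and 471 centred on genes of like length, where more were higher than lower. The median over all genes became -0.01, 0.00 and 0.00 in these 3. Shares of filtered nuclei in Normal and SAH moved from 2.79% and 2.76% to 3.38% and 3.29% with Foxp2 and Hs3st4 at 3 UMIs, 1.93% and 2.17% at 8, 2.12% and 1.61% per 10000 UMIs, 1.05% and 0.713% with Syt6, 2.36% and 2.22% with no Gad, Mobp or St18 UMI, and 4.09% and 4.8% with no Slc17a7 minimum, and 2.51% and 2.48% without the deepest 10% of members. Shares of Slc17a7 nuclei moved in the same order from 8.39% and 12.7% to 10.2% and 15.1%, 5.81% and 9.93%, 6.38% and 7.38%, 3.15% and 3.27%, 7.10% and 10.2%, and 7.55% and 11.4% without the deepest 10% of members. The limits of Methods removed no member. No replicate could be left out. No paired analysis was possible because each condition had 1 library and no test was made. Depth limited rare genes: with 65 and 39 UMIs, Egr3 had a log2 interval from -1.90 to -0.69.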

Other observations

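Genes outside the rule for named genes were looked at after their values were seen, and carry no rule of size. Bbox1, the last enzyme of carnitine synthesis, had 8 UMIs in 6 Normal nuclei and 96 UMIs in 63 SAH nuclei (log2 ratio 3.04, 2.00 to 4.29), and it was also higher in other glutamatergic (2.14), thalamic relay (2.59) and upper layer nuclei (3.20). The predicted gene Gm33206 had 3 UMIs in Normal and 116 in 65 SAH nuclei (4.73, 3.14 to 7.03), with 3.43 in other glutamatergic nuclei. Gadd45a, a gene of the DNA damage and stress response, had 53 UMIs in 38 Normal nuclei and 6 in SAH (-3.69, -5.20 to -2.47), with -2.03 in other glutamatergic and 0.50 in thalamic relay nuclei.

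The actin gene Actb was at 60.2 CPM in Normal and 23.0 in SAH (-1.39), with -1.38 in other glutamatergic, -1.54 in thalamic relay and -1.51 in upper layer nuclei. The actin-sequestering Tmsb10 had 82 and 26 UMIs (-2.20). Ighm, an immunoglobulin heavy chain gene, had 88 UMIs in 61 Normal members and 20 UMIs in SAH (-2.68, -3.46 to -1.97), with -2.54 in other glutamatergic and -0.08 in thalamic relay nuclei and 0.40 in upper layer nuclei. Cartpt, a neuropeptide gene, had 7 UMIs in Normal and 93 in SAH, of which 88 (94.6%) were in 1 nucleus, so its ratio describes that nucleus.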
